A study of Mus musculus with 24 samples.

Results

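The cytosolic ribosomal protein genes are described here as a gene family in mouse interscapular brown adipose tissue (iBAT). They were taken from the count table by symbol: Rpl or Rps with a number and, where present, a letter, together with Rplp0, Rplp1, Rplp2 and Rpsa, and without symbols that end in -ps. This rule found 89 of 36144 symbols, of which GENCODE M21 annotates 83 as protein coding and 6 as pseudogenes (Rpl32l, Rpl6l, Rps12l1, Rps3a2, Rps3a3 and Rps4l). A filter on low counts kept 84 of the 89 members. It removed Rpl10l (3 reads over 24 libraries), Rpl6l (6 reads), Rps3a2 (21 reads), Rps3a3 (19 reads) and Rpl32l, which is listed at 0. The symbol rule leaves out other genes of the same ribosome, of which Fau, Rack1 and Rpl36al are described beside the members.

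Polyadenylated RNA from iBAT of 24 separate mice aged 6 to 8 months was sequenced 30 minutes after an injection. The mice form 4 groups of 6, each with 3 males and 3 females: WT mice (C57Bl/6J) given saline, WT mice given deschloroclozapine (DCZ), Th-Cre mice (B6.129X1- Tht1(cre)Te/Kieg) given saline, and Th-Cre mice given DCZ. Th-Cre mice carry Cre recombinase under tyrosine hydroxylase regulatory sequence, so that Cre is made in cells that produce catecholamines, and DCZ activates designer receptors derived from muscarinic receptors. Not given in the sources used here are the receptor, how it was delivered and whether WT and Th-Cre mice were littermates. The labels number the WT libraries 1 to 12 and the Th-Cre libraries 13 to 24, so genotype and library number cannot be told apart. Within WT, 5 of the 6 DCZ libraries carry the numbers 1 to 6 and 5 of the 6 saline libraries the numbers 7 to 12.

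A ribosome is built from ribosomal RNA and a fixed set of ribosomal proteins, whose genes are transcribed at high levels in nearly every cell. Many of their mRNAs start with a cytosine followed by an unbroken run of pyrimidines, the 5′ terminal oligopyrimidine (TOP) motif, through which mTORC1 and the RNA-binding protein Larp1 set their translation. Brown adipocytes make heat with the uncoupling protein Ucp1, and noradrenaline from sympathetic nerves is their main stimulus.

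The start of the mRNA is shown first, because the TOP motif is the sequence feature this family is known for. The RefSeq-based promoter table (GRCm38.p6) held 64 of the 89 members. Of these, 14 (21.9%) had a start site at a C that opened a run of at least 5 pyrimidines, against 453 of all 16910 symbols with a window (2.68%). The run was 5 to 13 bases long in these 14. The 6 with the smallest p in saline Th-Cre against saline WT mice, Rps6 as the gene of the best known S6 kinase substrate, and Rpl22l1 as a paralog whose listed start is no pyrimidine run are printed here. Each window holds 45 bases before the start and 15 from it on, 5′ to 3′ on the gene's strand, and capitals mark the pyrimidine run that begins at the start site.
Rplp2 (chr7:141447606-141447665, plus strand): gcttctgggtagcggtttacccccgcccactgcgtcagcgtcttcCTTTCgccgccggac
Rps21 (chr2:180257334-180257393, plus strand): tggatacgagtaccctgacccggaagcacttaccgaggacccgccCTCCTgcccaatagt
Rpl35 (chr2:39005117-39005176, minus strand): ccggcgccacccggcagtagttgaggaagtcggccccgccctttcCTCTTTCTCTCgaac
Rps10 (chr17:27635230-27635289, minus strand): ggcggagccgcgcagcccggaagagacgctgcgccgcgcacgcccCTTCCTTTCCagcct
Rpl35a (chr16:33056437-33056496, plus strand): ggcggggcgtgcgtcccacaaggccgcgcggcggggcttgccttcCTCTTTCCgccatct
Rpl28 (chr7:4792920-4792979, plus strand): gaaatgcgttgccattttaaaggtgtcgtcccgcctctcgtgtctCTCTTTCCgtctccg
Rps6 (chr4:86857353-86857412, minus strand): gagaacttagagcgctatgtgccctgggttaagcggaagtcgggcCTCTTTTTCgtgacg
Rpl22l1 (chr3:28805463-28805522, plus strand): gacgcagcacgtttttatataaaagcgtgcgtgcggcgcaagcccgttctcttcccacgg

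Rpl35 and Rps10 have the longest runs of those printed and Rplp2 and Rps21 the shortest. The listed start of Rpl22l1 is a G, but a run of pyrimidines follows directly after it. For Rps21 and Rpl35a the table lists further start sites, and the one at a pyrimidine run is shown. The start sites are those of the table, and a start annotated a few bases away from the C of a TOP mRNA would not be counted. The 14 also include Rpl32l, a processed pseudogene listed at 0 reads. They are therefore a count of listed starts and not of TOP mRNAs. Within windows of 300 bases (250 before the start and 50 after it), searched on both strands, CCGGAAG, the core of the GABP and other ETS factor motif, was in 26 of the 64 members (40.6%) and in 13.1% of all windows' genes. AAGATGGC, a YY1 motif that can overlap CCGGAAG in its first letters AAG, was in 6 members (9.38%) against 3.61% of all. TATAAA was in 8 members (12.5%) against 14.4% of all, and Rpl22l1 was among those 8. These are matches of letters and not shown to be bound.

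Libraries held 11.9 to 22.9 M estimated counts, and 90897 to 217084 of them fell on the members. Mitochondrially encoded genes took 31.4 to 42.3% of the counts, so shares are given below of nuclear-encoded counts. All 8 brown adipocyte markers passed the filter, with a summed level of 3888 to 9073 CPM (counts scaled to a common library size). Transcripts of skeletal muscle stood out in 6 libraries (WT saline 12, Th-Cre saline DN2086, DN2087 and DN2094, Th-Cre DCZ DN2075 and DN2091), where the 13 muscle markers had a mean log2 CPM above 1. In bulk tissue, fewer cells of a type and less RNA per cell cannot be told apart.

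The members took between 1.08 and 1.96% of a library's nuclear-encoded counts. In WT saline libraries the lowest, median and highest shares were 1.34, 1.78 and 1.96%, and in WT DCZ libraries 1.27, 1.60 and 1.95%. In Th-Cre saline libraries they were 1.14, 1.25 and 1.34%, and in Th-Cre DCZ libraries 1.08, 1.21 and 1.46%. WT saline 2 fell inside the range of Th-Cre saline libraries and WT DCZ 1 and WT DCZ 4 inside that of Th-Cre DCZ libraries, while the other 9 WT libraries were above every Th-Cre library, as the plot of shares by library shows. Small and large subunit genes went the same way: the mean log2 CPM of the small subunit members averaged 6.63 ± 0.16 (SD, n = 6) in WT saline and 6.20 ± 0.11 in Th-Cre saline, and that of the large subunit members 6.39 ± 0.20 and 6.03 ± 0.11.

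**Figure D1:**
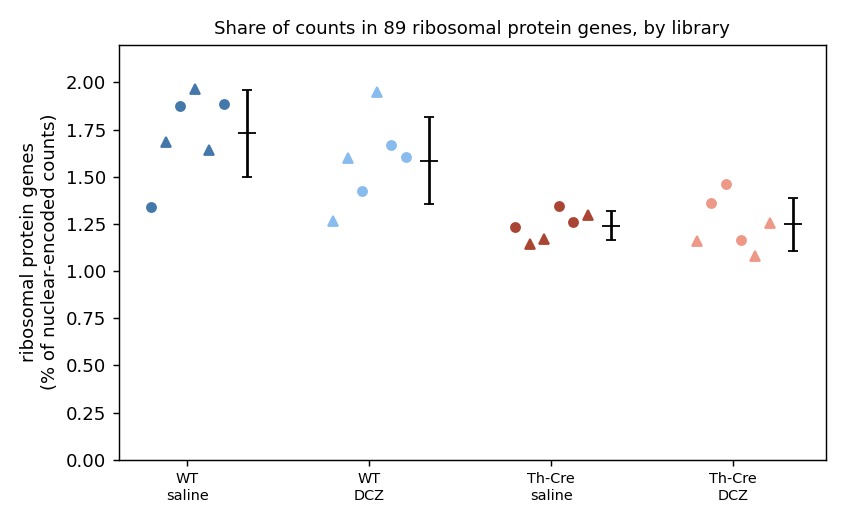
Share of nuclear-encoded counts (%) that fell on the 89 ribosomal protein genes in each of 24 libraries, by group (circles females, triangles males; black mark and bar, mean and SD of 6). Th-Cre saline libraries lie between 1.14 and 1.34% and WT saline libraries between 1.34 and 1.96%.

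Per kilobase of annotated transcript, the highest levels over all 24 libraries belonged to Rpl41 (528 CPM per kb), which encodes the smallest ribosomal protein, the stalk gene Rplp2 (499), Rps29 (387), Rpl23a (386) and the stalk gene Rplp1 (378). Among the members that passed the filter the lowest levels per kilobase were those of Rpl3l (0.35 CPM per kb), Rpl39l (2.74), Rpl5 (4.57), Rpl12 (5.10) and the pseudogene Rps12l1 (18.02). Rpl3l is a paralog of Rpl3 known from striated muscle, and Rpl39l one of Rpl39 known from the testis. Rpl5 and Rpl12 encode core proteins of the large subunit, and their low values stand beside reads on near-identical copies. Of the reads on Rpl5 and its copies in the annotation, 93.9% were assigned to the copies, and for Rpl12 this was 92.3%. The same share was 85.6% for Rps12, 74.1% for Rpl10 and 67.7% for Rpl27a, while 53 of the 84 tested members had less than 1% of such reads in copies. Of members described below it was also 49.5% for Rps16, 40.75% for Rpl31, 40.4% for Rpl35, 39.4% for Rps6 and 23.05% for Rps28, among others. Levels of members with many copies are therefore uncertain, and the length used for Rps20 (3706 bases) is that of its 1 basic transcript in the annotation.

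Th-Cre mice had lower ribosomal protein mRNA than WT mice after saline. Of the 84 members tested, 76 were lower and 0 higher at an adjusted p under 0.05, against 12.4% of all 13129 genes tested lower and 12.5% higher. Differences are given as log2 fold changes, called log2 differences for single genes. The members' median log2 fold change was -0.42 and that of all genes -0.01. Among large subunit genes 44 of 50 were lower (median -0.41), and among small subunit genes 32 of 34 (median -0.43). DESeq2 called 77 members lower and limma-voom 75.

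The member with the smallest p was Rps28, a small subunit gene on chromosome 17 (33819027 to 33824562, minus strand, GRCm38). Its lowest, median and highest levels were 47.8, 64.3 and 77.7 CPM in WT saline and 35.2, 39.1 and 48.5 CPM in Th-Cre saline. Only the lowest WT library (WT saline 2) fell inside the Th-Cre range. The log2 difference was -0.67 (SE 0.12, adjusted p = 0.00148), a level 0.63 times that of WT.

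Of the acidic stalk proteins, which recruit the GTPases of translation, Rplp1 showed 170, 234 and 295 CPM (lowest, median, highest) in WT saline and 146, 152 and 181 CPM in Th-Cre saline. Its ranges overlapped in WT saline 2 and Th-Cre saline DN2094, and its log2 difference was -0.62 (SE 0.12, adjusted p = 0.00166). Rplp2 ran from 190 to 298 CPM in WT saline and from 157 to 197 CPM in Th-Cre saline, with a log2 difference of -0.57 (SE 0.11, adjusted p = 0.00194). Rplp0, the protein on which the acidic pair is anchored, ran from 260.5 to 346 CPM in WT saline and from 218 to 249 CPM in Th-Cre saline. Its groups did not overlap, and its log2 difference was -0.40 (SE 0.09, adjusted p = 0.00275).

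Rpl41 had 212, 290 and 361 CPM (lowest, median, highest) in WT saline against 175, 193 and 210 CPM in Th-Cre saline, and every Th-Cre library was below every WT library. Its log2 difference was -0.62 (SE 0.12, adjusted p = 0.00166). Rpl31, a gene of the rim of the peptide exit tunnel, had 59.4, 73.9 and 83.6 CPM against 44.6, 51.5 and 55.2 CPM, also without overlap, and a log2 difference of -0.56 (SE 0.11, adjusted p = 0.00166). Rpl27a showed the same separation, with 55.5 to 85.6 CPM in WT saline, 39.0 to 53.0 CPM in Th-Cre saline and a log2 difference of -0.61 (SE 0.12, adjusted p = 0.0016). With its 4 copies holding most of the reads, the Rpl27a level is that of the reads kept at its own symbol. Further members with the largest falls were Rpl36 (-0.64), Rps21 (-0.62), Rps29 (-0.61), Rps20 (-0.59) and Rpl35a (-0.57), each with an SE of 0.12 to 0.14.

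In 16 of the 84 members every Th-Cre saline library lay below every WT saline library, which was so for 2.73% of all genes tested. These 16 were Rpl11, Rpl15, Rpl19, Rpl23, Rpl23a, Rpl26, Rpl27, Rpl27a, Rpl31, Rpl41, Rplp0, Rps14, Rps15a, Rps27a, Rps27l and Rps29. Rps27a, which is made as a fusion to ubiquitin, spanned 72.2 to 75.2 CPM in Th-Cre saline, against 77.5 to 121 CPM in WT saline (log2 difference -0.50, SE 0.11, adjusted p = 0.00278). Rpl11, which joins Rpl5 and the 5S rRNA in a particle that can bind the p53 regulator Mdm2, had 120 to 151 CPM against 153 to 218 CPM (log2 difference -0.45, SE 0.09, adjusted p = 0.00176). Rpsa, a small subunit gene also known as the laminin receptor, had 226 to 348 CPM against 289 to 455 CPM, overlapping ranges and a log2 difference of -0.49 (SE 0.12, adjusted p = 0.00636).

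The 8 tested members that missed the threshold in saline were Rpl10, Rpl12, Rpl39l, Rpl3l, Rpl5, Rpl7l1, Rps12l1 and Rps6. Rps6, which S6 kinases phosphorylate when mTORC1 is active, had 82.6, 111 and 129 CPM in WT saline and 77.2, 87.0 and 98.8 CPM in Th-Cre saline. Its ranges overlapped (log2 difference -0.32, SE 0.12, adjusted p = 0.0541). Rpl5 ran from 8.10 to 14.5 CPM against 7.31 to 9.01 CPM at its own symbol (log2 difference -0.33, SE 0.12, adjusted p = 0.0584), and Rpl10 had -0.22 with an SE of 0.18. The processed pseudogene Rps12l1 is listed at 0 in 6 libraries over the 4 groups and reached 25.4 CPM in WT DCZ 3. All (100%) of its 31-base words occur in Rps12, so reads of the 2 symbols could be shared.

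The 2 smallest falls past the threshold, named after their values were seen, were those of Rpl4 and Rpl3. Rpl4, a long large subunit gene that reaches into the exit tunnel, had 217, 240 and 256 CPM in WT saline and 201, 210 and 218 CPM in Th-Cre saline. The groups met at their edges, and the log2 difference was -0.19 (SE 0.06, adjusted p = 0.0332). Rpl3, next to the peptidyl transferase centre, had -0.24 (SE 0.08, adjusted p = 0.0424).

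**Figure D2:**
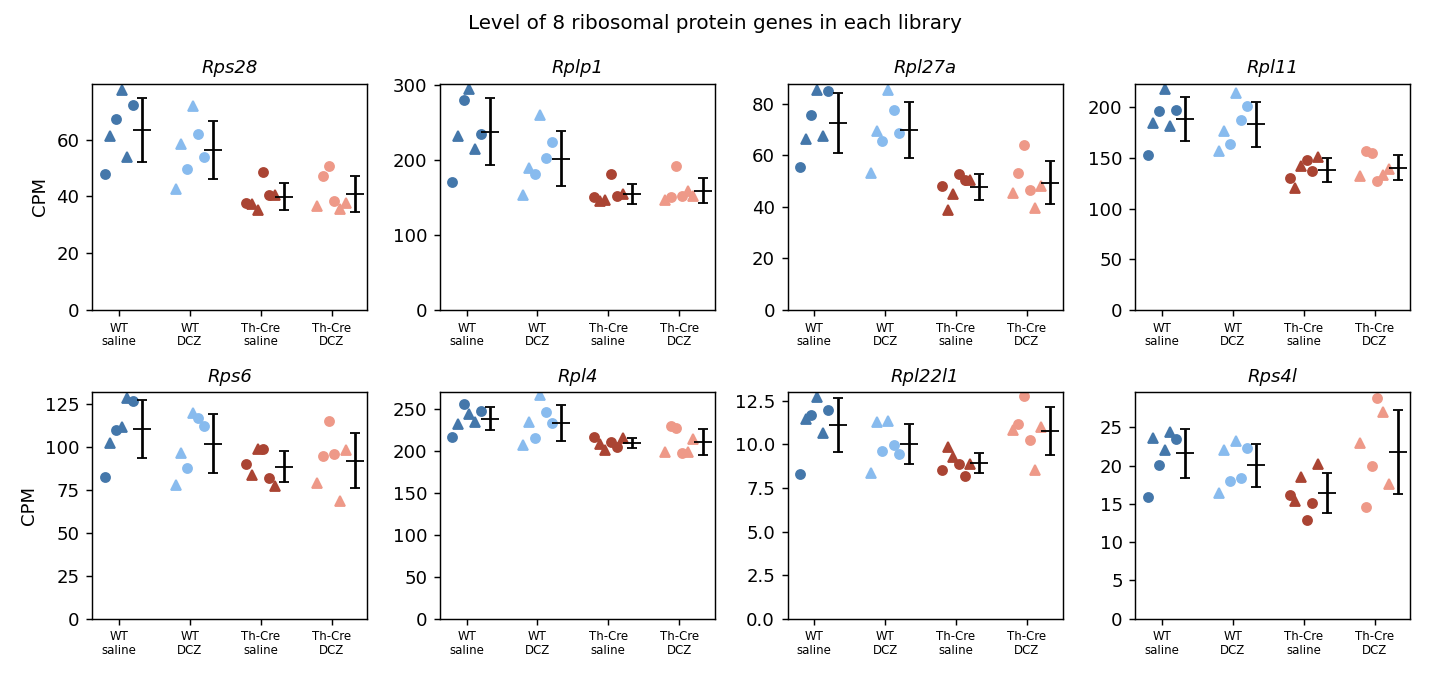
CPM of 8 members in each library, by group (circles females, triangles males; black mark and bar, mean and SD of 6; each axis starts at 0). Rps28, Rpl27a and Rpl11 were lower in Th-Cre mice in both treatments, Rplp1 and Rpl4 in saline and not in DCZ, and Rps6 in neither, and for Rpl22l1 and Rps4l the Th-Cre DCZ mean is above the Th-Cre saline mean without passing the test.

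In saline the median log2 fold change was lower for shorter transcripts, within the family up to 2500 bases and outside it. Members with transcripts of up to 500 bases had a median log2 fold change of -0.55 (19 of 20 lower), those of 500 to 750 bases -0.42 (22 of 23), those of 750 to 1000 bases -0.37 (20 of 22), those of 1000 to 1500 bases -0.35 (10 of 13) and those of 1500 to 2500 bases -0.29 (4 of 5). Rps20, the 1 member with a longer transcript (3706 bases), had -0.59, a larger fall than the median of any of these bins. Genes outside the family had medians of -0.33, -0.28, -0.21, -0.14 and -0.04 in the same 5 bins, and 0.08 over 4000 bases. Across the 84 members the log2 fold change and the log2 transcript length had a Pearson r of 0.31 and a Spearman rho of 0.54 in saline, and 0.18 and 0.19 in DCZ, a description over genes that share the same libraries. In each of these 5 bins the members' median was lower than that of the other genes, as the plot by transcript length shows.

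**Figure D3:**
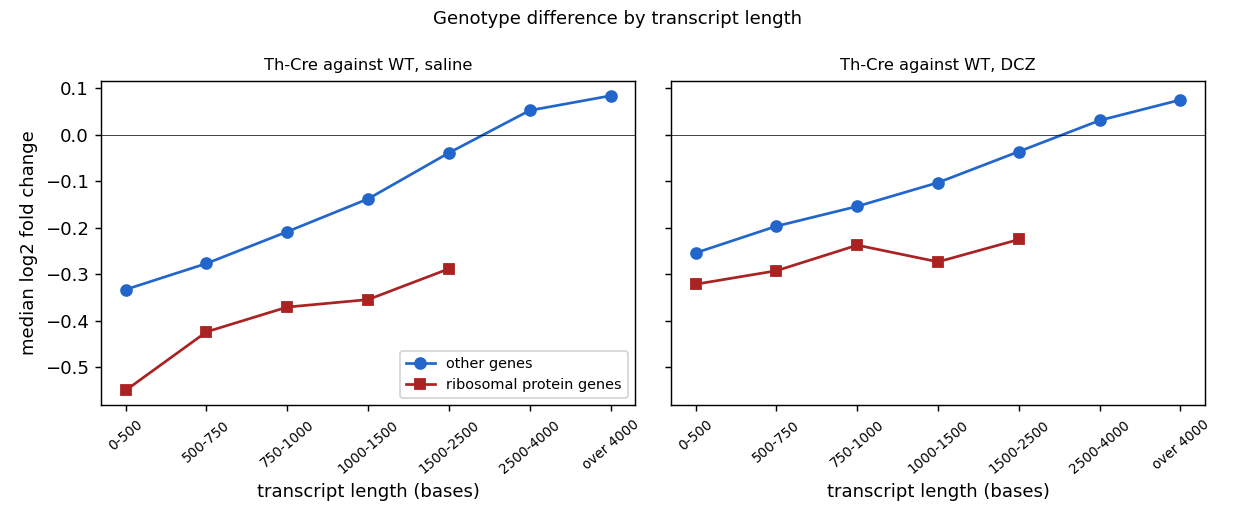
Median log2 fold change of Th-Cre over WT in bins of transcript length (bases), for ribosomal protein genes (squares; bins with at least 5 members) and all other genes tested (circles), in saline (left) and DCZ (right). In saline both lines rise with length, the members' from -0.55 to -0.29 and that of other genes from -0.33 to 0.08. In DCZ the line of other genes rises, while the members' runs from -0.32 to -0.23 and is lower at 1000 to 1500 bases (-0.27) than at 750 to 1000 bases (-0.24).

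Other genes of like size and level were also often lower in saline. Of 538 non-members that were both no longer than the members' 90th percentile (1338.7 bases) and at or above their 10th percentile of level (a mean log2 CPM of 5.0), 54.5% were lower (median -0.24). Of 78 mitochondrial ribosomal protein genes, which encode the separate ribosome of the organelle, 36 were lower and 6 higher (median -0.18). Of 30 annotated copies of the members that passed the filter, 19 were lower (median -0.41). With a trend on transcript length taken out of all genes, an alternative added after seeing the data, 26 members stayed lower in saline and 7 in DCZ, with medians of -0.18 and -0.11.

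Genotype in saline moved together with other measures whose part in the result was not tested. All 5 endothelial markers were lower in Th-Cre saline, with summed levels of 452 to 511 CPM against 486 to 878 CPM in WT saline. The 8 brown adipocyte markers summed to 4666 to 6284 CPM against 6249 to 8548 CPM, with 2 of 8 lower and a median log2 difference of 0.07 over the 8. Without the 6 libraries rich in muscle transcripts the members' median stayed at -0.42, with 73 of 83 members at an unadjusted p under 0.05 but 1 past the adjusted threshold, and calls over all genes fell to 57 higher and 52 lower. A term for lower and higher library numbers within each genotype left 36 members lower (median -0.34). Compared at the lower numbers, where WT saline 2 is the only WT saline library, it left 0 members (8 at an unadjusted p under 0.05, median -0.20), and at the higher numbers 77. Males alone gave 24 members (median -0.50) and females alone 0 (55 at an unadjusted p under 0.05, median -0.35), a difference between the sexes that was not tested. The fits by sex use fewer libraries. Calls over all genes are not given for them or for the library-number term, so these counts alone do not show a change particular to the members.

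After DCZ the family was again lower in Th-Cre than in WT mice. Of the 84 members 33 were lower and 0 higher, against 7.02% of all genes tested lower and 6.75% higher, and all 33 were among the 76 of the saline comparison. The members' median log2 fold change was -0.29 and that of all genes was -0.0025. There were 17 of 50 large subunit and 16 of 34 small subunit members among the 33. DESeq2 called 41 members lower and limma-voom 32. Over all genes the DCZ comparison gave 886 higher and 922 lower, and 722 and 1216 with upper-quartile scaling, where 41 members were lower. The saline and DCZ comparisons share no library.

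Rps13, which binds early in small subunit assembly, had the smallest p. Its lowest, median and highest levels were 55.7, 65.6 and 76.2 CPM in WT DCZ and 44.6, 50.2 and 56.8 CPM in Th-Cre DCZ, with ranges that met at the edge. The log2 difference was -0.39 (SE 0.08, adjusted p = 0.00567). Rps2, the member with the highest CPM, had 323, 391 and 488 CPM in WT DCZ and 248, 285 and 341 CPM in Th-Cre DCZ. These ranges overlapped in part, and the log2 difference was -0.44 (SE 0.10, adjusted p = 0.00591).

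Rpl11, Rpl35 and Rpsa were the 3 members in which every Th-Cre DCZ library was below every WT DCZ library, against 1.68% of all genes tested, and Rpl11 was the 1 member so separated in both treatments. Rpl11 had 157, 182 and 214 CPM in WT DCZ and 127, 136 and 156 CPM in Th-Cre DCZ (log2 difference -0.38, SE 0.09, adjusted p = 0.00725). Rpl35, an exit tunnel gene with one of the TOP starts printed above, had 57.8, 61.7 and 80.1 CPM against 47.4, 53.2 and 56.3 CPM (log2 difference -0.32, SE 0.08, adjusted p = 0.011). This is the level at its own symbol, as 40.4% of the reads on Rpl35 and its copies were assigned to the copies. Rpsa had 299.8 to 479 CPM against 228 to 288 CPM (log2 difference -0.45, SE 0.12, adjusted p = 0.0184). Among the 33 members past the threshold, the largest falls in DCZ were those of Rpl27a (-0.51), Rps28 (-0.47), Rpl36 (-0.46) and Rps16 (-0.45), followed by Rpsa, Rps2 (-0.44), Rps29 (-0.44), Rplp2 (-0.42), Rps20 (-0.41) and Rpl13a (-0.40).

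Several members with large falls in saline missed the threshold in DCZ. Rplp1 had 153, 196 and 261 CPM in WT DCZ and 147, 152 and 192 CPM in Th-Cre DCZ, so that the groups overlapped (log2 difference -0.35, SE 0.12, adjusted p = 0.0519). Rpl41 had -0.30 (SE 0.12, adjusted p = 0.0876) and Rpl31 -0.18 (SE 0.11, adjusted p = 0.263). Rps27a passed at -0.36 (SE 0.11, adjusted p = 0.028) and Rplp0 at -0.28 (SE 0.09, adjusted p = 0.03), while Rps6 had -0.15 (SE 0.12, adjusted p = 0.426) and Rpl5 -0.34 (SE 0.12, adjusted p = 0.0692).

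**Figure D4:**
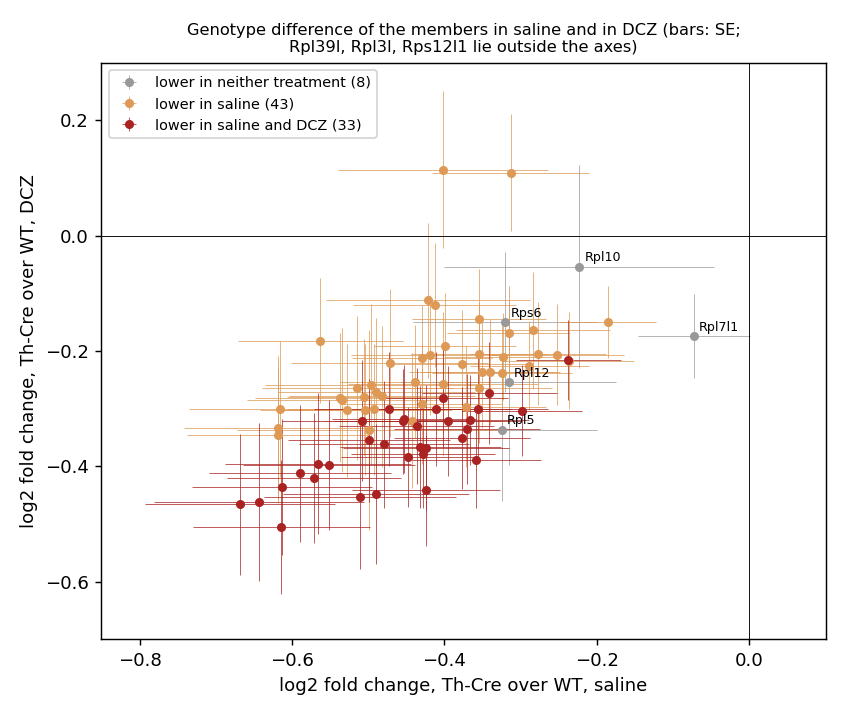
Log2 fold change of Th-Cre over WT for the members in saline (horizontal) and in DCZ (vertical), with SE bars, coloured by whether the member was lower in both treatments (33), in saline and not DCZ (43) or in neither (8). Rpl3l, Rpl39l and Rps12l1, which are in neither group, lie outside the axes: Rpl3l and Rpl39l are above 0 in both treatments, and Rps12l1 below 0 in both. The members within the axes lie below 0 on both, except Rpl22l1 and Rps4l, which are above 0 in DCZ.

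The DCZ count rested on single libraries more than the saline count did. Without WT DCZ 1 it rose to 56 members, and without WT DCZ 5 it fell to 7. It was 19 without WT DCZ 10, 12 without Th-Cre DCZ DN2072, 12 without Th-Cre DCZ DN2075 and 13 without Th-Cre DCZ DN2097, whereas the saline count stayed between 65 and 78. A fit on the DCZ groups alone gave 18 members, and the fit without the 6 libraries rich in muscle transcripts 3 (median -0.26). With the library-number term the count was 60 (median -0.38), with 6 members at the lower and 45 at the higher numbers, where WT DCZ 10 is the only WT DCZ library. Brown adipocyte markers summed to 3888 to 6128 CPM in Th-Cre DCZ and 6432 to 9073 CPM in WT DCZ, with 2 of 8 lower and 1 higher, and their part in the result was not tested.

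DCZ itself moved no member past the test in either genotype. In Th-Cre mice 0 of 84 members were higher or lower, against 0.0229% of all genes higher and 0% lower, with a members' median log2 fold change of 0.01. At an unadjusted p under 0.05 there were 3 members, against 745 of all 13129 genes tested. In WT mice 0 of 84 were higher or lower, against 0% of all genes higher and 0.00762% lower. There, 6 members had an unadjusted p under 0.05, against 1137 of all 13129 genes tested. DESeq2 and limma-voom also called 0 members in both. The WT median was -0.13, with 80 of 84 members negative. Over all genes tested 6594 of 13129 were negative, and of the 538 non-members of like size and level 400 were (median -0.075). With the library-number term the members' median became 0.03 (25 negative). The plot of members in 5 comparisons shows this small shift in WT beside the genotype differences.

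The 3 members in Th-Cre mice were paralogs. Rps4l, a processed pseudogene related to Rps4x, had 12.9, 15.8 and 20.2 CPM (lowest, median, highest) in Th-Cre saline and 14.6, 21.4 and 28.8 CPM in Th-Cre DCZ (log2 difference 0.41, SE 0.14, adjusted p = 0.585). Rpl22l1, the paralog of Rpl22, had 8.20, 8.87 and 9.83 CPM in Th-Cre saline and 8.55, 10.9 and 12.8 CPM in Th-Cre DCZ (log2 difference 0.27, SE 0.10, adjusted p = 0.696). Both ranges overlapped. Rpl39l had 0.99 to 4.31 CPM in Th-Cre saline and 0.48 to 2.52 CPM in Th-Cre DCZ, a log2 difference of -0.87 (SE 0.34, adjusted p = 0.73), and in WT mice it also had -0.87 (SE 0.37, adjusted p = 0.529).

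In WT mice the smallest p was that of Rpl31, with 59.4, 73.9 and 83.6 CPM in saline and 43.9, 60.6 and 79.9 CPM in DCZ. The ranges overlapped over most of their width (log2 difference -0.28, SE 0.11, adjusted p = 0.527). Rpl38, Rpl41 and Rpl36a had -0.28, -0.26 and -0.26, each with an SE of 0.12 or 0.13 and none past the threshold. The stalk genes, Rps6 and Rps27a likewise did not pass in either genotype.

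The change with DCZ was not detectably different between genotypes for any member. Of 84 members 0 passed the test of the interaction in either direction, against 0.00762% of all genes higher and 0% lower, and DESeq2 and limma-voom also called 0. At an unadjusted p under 0.05 there were 3 members, against 980 of all 13129 genes tested. The 3 at an unadjusted p under 0.05 were Rpl22l1 (difference of log2 fold changes 0.42, SE 0.14, adjusted p = 0.607), Rps4l (0.52, SE 0.19, adjusted p = 0.607) and Rpl31 (0.38, SE 0.15, adjusted p = 0.607). The members' median was 0.14 and became -0.03 with the library-number term. This interaction is also the test of whether the genotype difference itself differed between saline and DCZ, so the counts of 76 and 33 are not shown to stand for different effects.

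**Figure D5:**
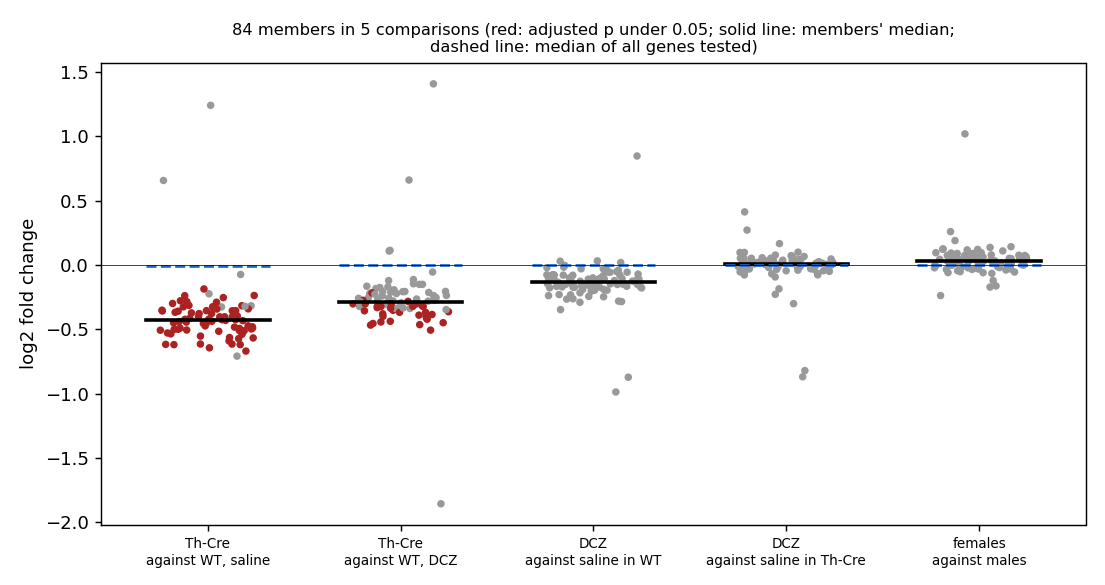
Log2 fold change of the 84 tested members in 5 comparisons (points; red, adjusted p under 0.05), with the members' median (solid line) and the median of all 13129 genes (dashed line). The members' medians are -0.42 and -0.29 for genotype, -0.13 and 0.01 for DCZ and 0.03 for sex.

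No member passed the test between the sexes. Between 12 females and 12 males 0 of 84 members passed, against 4.11% of all genes tested higher and 3.95% lower in females. At an unadjusted p under 0.05 there were 0 members, against 2980 of all 13129 genes tested. DESeq2 and limma-voom called 0 as well. The smallest p belonged to Rps24, a small subunit gene (log2 difference -0.12, SE 0.06, adjusted p = 0.266), and Rpl3l had 1.02 with an SE of 0.57.

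The paralogs differed from their partners in level and in part in direction. Rpl3l stood at 0 to 0.97 CPM in WT saline, 0.06 to 0.29 in WT DCZ, 0 to 3.27 in Th-Cre saline and 0.12 to 1.56 in Th-Cre DCZ. Its highest values, 3.27 CPM in Th-Cre saline DN2094 and 1.56 CPM in Th-Cre DCZ DN2075, came from the libraries with the highest summed muscle markers (1548 and 690 CPM), whose part in the Rpl3l level was not tested. Its log2 fold changes for genotype were 1.24 (SE 0.75) in saline and 1.41 (SE 0.87) in DCZ, neither past the threshold, while Rpl3 ran from 157 to 253 CPM over all libraries.

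Rpl22 had 56.4, 80.2 and 83.5 CPM in WT saline and 55.7, 59.6 and 64.3 CPM in Th-Cre saline (log2 difference -0.35, SE 0.09, adjusted p = 0.0062). WT saline 2 alone reached into the Th-Cre range. Rpl22l1 was lower in saline as well, at -0.31 (SE 0.10, adjusted p = 0.0285), but had 0.11 (SE 0.10, adjusted p = 0.497) in DCZ. Rps4l had -0.40 (SE 0.14, adjusted p = 0.0354) in saline and 0.11 (SE 0.14, adjusted p = 0.609) in DCZ, against -0.34 (SE 0.09, adjusted p = 0.0101) and -0.24 (SE 0.09, adjusted p = 0.0842) for Rps4x.

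Rps27l, known as a p53 target, stood at 101 CPM per kb beside 188 for Rps27, and was lower in Th-Cre mice in both treatments. It had 47.7, 59.5 and 69.8 CPM in WT saline and 39.5, 42.8 and 47.2 CPM in Th-Cre saline, without overlap (log2 difference -0.45, SE 0.09, adjusted p = 0.00211). In DCZ it had -0.32 (SE 0.09, adjusted p = 0.0222), whereas Rps27 fell in saline at -0.49 (SE 0.13, adjusted p = 0.009) and had -0.27 (SE 0.13, adjusted p = 0.158) in DCZ. Rpl7l1 stood at 37.0 to 50.4 CPM in the saline libraries of both genotypes, with a log2 difference of -0.07 (SE 0.07, adjusted p = 0.492), while Rpl7 fell by 0.34 on the log2 scale (SE 0.09, adjusted p = 0.00816). Rpl39l had 0.66 (SE 0.34, adjusted p = 0.157) in saline at 0.74 to 4.31 CPM, against -0.47 (SE 0.13, adjusted p = 0.0107) for Rpl39.

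The members went up and down together from library to library. The median Pearson r of log2 CPM between 2 members was 0.86 over 24 libraries and 0.74 after the 4 group means were taken out, a description over points that share library preparation and scaling. After the group means were taken out, 78 of 84 members had an r of 0.5 or more with the mean of the members. Rps20 (0.95) and Rps25 (0.94) followed it most closely. The 6 below 0.5 were Rps12l1 (-0.07), Rps4l (0.04), Rpl3l (0.09), Rps12 (0.33), Rpl7l1 (0.33) and Rpl10 (0.43).

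Members with and without a TOP start in the promoter table were counted side by side, with no test of the difference. The split follows the listed start sites. Rpl27a, Rpl7a and Rps24 have a listed start at a T that opens a run of 16, 7 and 6 pyrimidines, and they count as without. The counts therefore do not compare TOP mRNAs with other mRNAs. Of the 14 with such a start, Rpl32l was not tested. In saline 12 of the 13 tested were lower (median -0.49), and 43 of the 49 tested with no such start in their windows (median -0.40). In DCZ the counts were 4 of 13 (median -0.30) and 17 of 49 (median -0.26).

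The other genes of the ribosome and its supply were taken from lists. Their counts stand against 12.5% of all genes tested higher and 12.4% lower in saline, and 6.75% higher and 7.02% lower in DCZ. The lists were not matched for transcript length or level. Of the 538 non-members of like size and level to the members, 54.5% were lower in saline and 30.5% in DCZ, and 3.9% and 1.49% were higher. Fau, Rack1 and Rpl36al, ribosomal protein genes outside the symbol rule, were lower in saline, and of these Rpl36al was also lower in DCZ. Rpl36al had -0.48 in saline (SE 0.09, adjusted p = 0.0013) and -0.37 in DCZ (SE 0.09, adjusted p = 0.0092). Fau, fused to a ubiquitin-like protein, and the scaffold gene Rack1 had -0.52 (SE 0.11, adjusted p = 0.00248) and -0.31 (SE 0.09, adjusted p = 0.0134) in saline. In DCZ they had -0.28 (SE 0.11, adjusted p = 0.0786) and -0.21 (SE 0.09, adjusted p = 0.109), short of the threshold.

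Of 23 other genes listed as known for TOP mRNAs, 8 were lower and 2 higher in saline (median -0.13), and 3 lower and 0 higher in DCZ. The promoter windows held 16 of these 23, and 2 of the 16 (12.5%) had a listed start that met the pyrimidine rule above. Tpt1, the translationally controlled tumour protein, averaged 674 ± 89.6 CPM in WT saline and 502 ± 27.4 CPM in Th-Cre saline (log2 difference -0.42, SE 0.09, adjusted p = 0.00349). Eif3k, an initiation factor subunit, and Eef1b2, an elongation factor subunit, had -0.38 (SE 0.08, adjusted p = 0.00315) and -0.38 (SE 0.09, adjusted p = 0.0038). The same 3 genes were those lower in DCZ.

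Of 32 genes of ribosome assembly, 8 were lower and 1 higher in saline, and 4 lower and 1 higher in DCZ. That is 25% lower and 3.12% higher in saline, against 12.4% and 12.5% of all genes tested. In DCZ it is 12.5% lower and 3.12% higher, against 7.02% and 6.75%. Nop10 and Nhp2, proteins of the H/ACA particles that guide pseudouridylation, had -0.51 (SE 0.09, adjusted p = 0.00107) and -0.59 (SE 0.11, adjusted p = 0.00148) in saline, and Dkc1, the pseudouridine synthase of those particles, was higher at 0.35 (SE 0.10, adjusted p = 0.0138). Ppan, a large subunit assembly factor, had -0.62 (SE 0.11, adjusted p = 0.00127) in DCZ. Of 11 genes of RNA polymerase I and its factors, Polr1a was higher in saline (0.36, SE 0.08, adjusted p = 0.00411) and Taf1c lower in saline (-0.32, adjusted p = 0.0445) and in DCZ (-0.48, adjusted p = 0.0109). With 1 gene called, each of these shares is 9.09%, near the shares of all genes tested. Of 24 other initiation and recycling factors, 6 were higher and 4 lower in saline, Eif4g1 at 0.46 (SE 0.10, adjusted p = 0.00255) and Eif4a1 at -0.29 (SE 0.06, adjusted p = 0.00328) among them.

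Of 20 genes of the mTORC1 pathway, 7 (35%) were higher and 1 lower in saline (median 0.17), and 7 higher and 0 lower in DCZ (median 0.19). Of the genes outside the family at or above the members' 10th percentile of level, 24.6% were higher in saline and 10.5% in DCZ, and the list itself was not tested. Mtor, the kinase itself, averaged 112 ± 26.8 CPM in WT saline and 185 ± 13.4 CPM in Th-Cre saline (log2 difference 0.72, SE 0.14, adjusted p = 0.0016), and had 0.61 in DCZ (SE 0.14, adjusted p = 0.00677). Eif4ebp2, which restrains cap-dependent initiation, had 0.57 (SE 0.11, adjusted p = 0.0016), Larp1 0.34 (SE 0.07, adjusted p = 0.00177) and the mTORC1 subunit Rptor 0.42 (SE 0.09, adjusted p = 0.00274) in saline. Rps6kb2, an S6 kinase gene, was the 1 lower gene (-0.27, SE 0.09, adjusted p = 0.0275). Under DCZ against saline the smallest p of the lists was that of Eif2s3x in WT (0.22, adjusted p = 0.527) and of Myc in Th-Cre mice (0.53, SE 0.24, adjusted p = 0.819).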

How the data were processed

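Polyadenylated RNA of 24 iBAT samples was sequenced. The submitters' processing notes name kallisto 0.44.0 and GRCm38.p6. Not given in the sources used here are the set of transcripts, how they were summed to symbols, and strand use. The authors deposited estimated counts per gene symbol as whole numbers, which were tested as deposited, and per-library mapping tables with read counts and the percent of reads pseudoaligned (84.2 to 88.7, as deposited by the authors). The authors' normalized tables, made separately for each genotype, were not used.

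Of 36144 symbols, filterByExpr by group kept 13129, which held 99.9% of reads. The edgeR 4.0.16 quasi-likelihood test (R 4.3.3) was fitted over all 24 libraries with TMM sizes, group means and a sex term, and p-values were adjusted over all 13129 genes by the Benjamini-Hochberg method. Every adjusted p without another tool named comes from this test, and lower or higher means an adjusted p under 0.05. CPM values are on TMM sizes. SEs were derived from the fold change and F. Mice are separate animals and no number pairs them. Alternatives were other scalings, filters, DESeq2 1.42.0, limma-voom (limma 3.58.1), other covariates and samples, copies added, and each library left out. Scripts were tested on simulated data.

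Copies are annotated genes that share at least 50% of their 31-base words with a member in GENCODE M21 transcripts. Transcript length is that of the shortest transcript with the best APPRIS tag, and for genes without such a tag the median of all their transcripts. Coordinates are GRCm38, and promoter windows come from RefSeq.

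The members and lists were chosen with earlier results of these data known. Named members are, for each comparison, the 5 with the smallest p and the 10 largest changes each way past the threshold. For levels they are the 5 highest and 5 lowest per kb and those the filter removed. Stalk, paralog and a few other genes were always included, and of each list up to 4 genes past the threshold, or the 1 with the smallest p. Members listed to fill a count were named after their values were seen. A result for 1 gene outside the symbol rule is not reported here.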

Additional observations from a re-analysis of the deposited data

Results flagged for a closer look

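In each group of 6 libraries the gap of the highest and lowest value to its neighbour was compared with Dixon's critical ratio for groups of that size for 31 members and for 2 summaries of the family. Of 132 groups of values 11 passed. Chance gives about 1 in 20 for independent values, but the members share libraries and vary together within groups. Many of them were also named for their results in these data, so the 11 cannot be set against that rate. WT saline 2 was below the other WT saline libraries for Rpl22 (56.4 CPM, others 77.0 to 83.5), Rpl7 (149 CPM, others 184 to 204) and Rps4x (110 CPM, others 139.8 to 154). Th-Cre saline DN2094 was above its group for Rplp1 (181 CPM, others 146 to 155), Rpl35 (57.1 CPM, others 49.0 to 51.1), Rpsa (348 CPM, others 226 to 269) and Rpl3l (3.27 CPM, others 0 to 0.89). Th-Cre DCZ DN2075 was above its group for Rpl3l (1.56 CPM, others 0.12 to 0.45), and Th-Cre DCZ DN2207 for Rplp1 (192 CPM, others 147 to 159). WT DCZ 5 was above its group for Rpsa (479 CPM, others 299.8 to 332), and WT saline 8 for Rpl7l1 (50.4 CPM, others 38.5 to 42.0).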

How the results depend on the processing

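The count of lower members was within 1.5 times the values given (76 in saline, 33 in DCZ) under RLE, upper-quartile and total-count scaling, factors without the members or mitochondrially encoded genes, both filters, DESeq2, limma-voom, no sex term and added pseudogenes or copies. Upper-quartile scaling changed the split of all genes in saline to 1406 higher and 1967 lower, and in DCZ to 722 and 1216. Other settings gave, for saline and DCZ: library-number term 36 and 60 (at lower numbers 0 and 6; these comparisons at lower and higher numbers were added after seeing the data), no muscle-rich libraries 1 and 3, males 24 and 6, females 0 and 0, length trend taken out (added after seeing the data) 26 and 7. The DCZ groups alone gave 18. Apart from the saline fit without muscle-rich libraries, calls over all genes are not given for these settings. The counts alone therefore do not show what is particular to the members. Leaving out each library gave 65 to 78 in saline and 7 to 56 in DCZ. The DCZ, interaction and sex counts stayed at 0 in every alternative run.

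Signs turned, all on the log2 scale and the cause not tested, with the library-number term for DCZ in WT (Rpl38 0.0213, Rpl41 0.0076, Rpl36a 0.0191), at lower numbers in saline (Rps6 0.0177, Rpl7l1 0.082, Rpl10 0.0334), at higher numbers in DCZ (Rpl22l1 -0.14, Rps4l -0.10), in males (Rpl7l1 0.0345 in saline, Rpl22l1 -0.0187 and Rpl39l -0.0242 in DCZ) and without the length trend (Rpl7l1 0.0512 and Rpl10 0.0023 in saline, Rpl22 0.0666 in DCZ). This list covers only the members named in each comparison. It also leaves out turns where the value moved by less than its SE and neither fit called the member. With the library-number term many more members turned for DCZ in WT, as the counts of negative members given above show. Rpl3l under DCZ in Th-Cre mice ran from -1.48 to 0.15 as libraries were left out, the latter without Th-Cre saline DN2094. Of the other values of single members, leaving out a library lost a call in 80 cases and gained one in 22, with 1841 the same. No paired analysis was possible because the labels give each mouse its own number. Counting error limits Rpl3l and Rpl39l, and reads on copies limit Rpl5, Rpl12, Rps12 and Rpl10. Reads on copies also limit Rpl27a, Rps16, Rpl31, Rpl35, Rps6 and Rps28, among others.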
